A study of Rattus norvegicus with 6 samples.

Results

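The heat shock chaperones of the cytosol and the mitochondria were described in primary rat liver sinusoidal endothelial cells, the lining of the liver's capillaries, held at a raised or a normal pressure. The members were 35 genes taken by their symbols, of 32623 genes in each library, and all 35 symbols were found. Hspa1a and Hspa1b were added into 1 value because near-identical copies share reads, which left 34 members. The pathological group was kept at 12 mmHg and the physiological group at 1 mmHg, with 3 libraries each. Cells of both groups came from Han Wistar rats and were cultured for 48 h in a perfused device at a shear stress of 1.15 dyn/cm2, sharing it with primary hepatocytes, hepatic macrophages and stellate cells. No genotype, age, sex or number of animals is stated. The comparison asks how raised pressure alters expression in these cells. Levels are CPM, a gene's counts scaled to 1e+06 of a library's total after TMM correction, and are compared between libraries for 1 gene, not between genes.

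Heat shock proteins are chaperones that keep other proteins folded. HSP70 proteins bind unfolded stretches with the help of J proteins, nucleotide exchange factors such as HSP110 and BAG proteins release the client, and HSP90 with its partners completes the folding of kinases and receptors. Small heat shock proteins hold unfolded clients, and a separate HSP60 and HSP10 chamber works in the mitochondrial matrix. Heat shock factor HSF1 induces many of these genes under heat, oxidative or mechanical stress by binding repeated GAA and TTC units in their promoters, and tissue dissociation and culture are known to induce them as well.

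The libraries were uneven in ways that touch every value below. Unlike the levels of the members, marker levels in this paragraph are CPM of the plain library total, without TMM correction. Totals ran from 11426299 to 23754767 counts in the pathological and from 8925149 to 24025406 counts in the physiological libraries. Transcripts of 25 matched hepatocyte markers summed to 468, 803 and 72148 CPM in pathological replicates 1, 2 and 3, against 310, 52887 and 36431 CPM in physiological replicates 1, 2 and 3. Pathological replicates 1 and 2 and physiological replicate 1 were thus poor in hepatocyte transcripts, and the other 3 libraries were rich in them. The endothelial cadherin Cdh5 lay between 169 and 405 CPM in every library, while the sinusoidal lectin Clec4g lay at 0.631, 4.52 and 85.1 CPM in the pathological and at 2.08, 184 and 62.7 CPM in the physiological libraries. Clec4g, which marks the labelled cell type, was thus lowest in the 3 hepatocyte-poor libraries. All 18 matched endothelial markers were detected in 5 of 6 libraries, with Cd36 at 0 in pathological replicate 2, and they summed to between 1205 and 6131 CPM in the pathological and between 3662 and 6412 CPM in the physiological libraries. Stellate markers summed to between 487 and 2559 CPM in the pathological and between 741 and 1838 CPM in the physiological libraries, with Lum at 0 in all 6. Macrophage markers summed to 48.3 CPM in pathological replicate 2, where Tyrobp and Adgre1 were at 0, against 866 to 1475 CPM in the other 5 libraries. In such bulk samples, fewer cells of a type and less RNA per cell cannot be told apart, and the part of these cells in the results was not tested.

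The promoters of 29 of the 35 members were matched in RefSeq (build GRCr8), each as 250 bases before and 50 bases after the gene's start. A heat shock element of 3 units, GAANNTTCNNGAA or its reverse complement TTCNNGAANNTTC, was searched on both strands. It was found in 6 of the 29 members, or 20.7%, against 267 of all 33469 promoters, or 0.798%. The shorter forms of 2 units, GAANNTTC and TTCNNGAA, which also lie inside the longer ones, were found in 17 of the 29 members, or 58.6%, against 15.9% of all promoters. The 6 members were Hspa8, Hsph1, Dnaja1, Chordc1, Hspd1 and Hspe1. Their promoters are shown because these 6 members share the element. The members were taken by symbol and not by sequence, but many heat shock genes are known to be induced through such units. The higher share is thus a description and not a test. Capitals mark the runs that match 3 units.
Hspa8 (chr8:50080264-50080563, plus strand): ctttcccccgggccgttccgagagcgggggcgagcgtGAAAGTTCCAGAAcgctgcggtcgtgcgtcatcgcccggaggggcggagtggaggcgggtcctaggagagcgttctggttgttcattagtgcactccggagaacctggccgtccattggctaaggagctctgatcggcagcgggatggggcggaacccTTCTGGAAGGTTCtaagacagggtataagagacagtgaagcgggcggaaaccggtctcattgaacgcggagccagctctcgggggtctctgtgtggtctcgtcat
Hsph1 (chr12:10427118-10427417, plus strand): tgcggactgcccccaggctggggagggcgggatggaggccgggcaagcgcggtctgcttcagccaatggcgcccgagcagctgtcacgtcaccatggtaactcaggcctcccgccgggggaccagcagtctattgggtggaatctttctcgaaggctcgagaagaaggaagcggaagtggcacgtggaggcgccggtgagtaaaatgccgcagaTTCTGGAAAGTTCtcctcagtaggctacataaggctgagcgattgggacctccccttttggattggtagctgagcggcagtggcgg
Dnaja1 (chr5:60638154-60638453, plus strand): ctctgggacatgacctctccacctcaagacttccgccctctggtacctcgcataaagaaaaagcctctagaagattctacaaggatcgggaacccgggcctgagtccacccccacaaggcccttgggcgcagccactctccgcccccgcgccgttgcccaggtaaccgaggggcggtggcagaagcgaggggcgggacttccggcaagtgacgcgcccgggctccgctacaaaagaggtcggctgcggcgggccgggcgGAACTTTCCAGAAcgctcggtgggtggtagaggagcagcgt
Chordc1 (chr8:23650571-23650870, plus strand): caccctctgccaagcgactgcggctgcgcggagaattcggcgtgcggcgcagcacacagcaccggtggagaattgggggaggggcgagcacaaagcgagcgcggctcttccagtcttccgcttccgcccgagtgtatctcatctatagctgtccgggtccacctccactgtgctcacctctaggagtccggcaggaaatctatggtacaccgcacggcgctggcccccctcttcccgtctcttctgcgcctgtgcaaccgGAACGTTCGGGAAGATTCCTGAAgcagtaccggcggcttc
Hspe1 (chr9:64084077-64084376, plus strand): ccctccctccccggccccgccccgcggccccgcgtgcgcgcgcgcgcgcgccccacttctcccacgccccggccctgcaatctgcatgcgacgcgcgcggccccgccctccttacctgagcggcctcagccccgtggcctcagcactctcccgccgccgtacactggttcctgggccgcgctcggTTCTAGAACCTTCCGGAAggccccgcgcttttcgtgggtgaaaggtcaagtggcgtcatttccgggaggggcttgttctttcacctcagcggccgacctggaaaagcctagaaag

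Hspd1 and Hspe1 lie head to head, so the run of capitals in the Hspe1 promoter is the same stretch that was found on the other strand in the Hspd1 promoter, and these entries are not independent. The match lay before the start in Hspa8, Hsph1, Hspe1 and Hspd1 and after it in Dnaja1 and Chordc1. Of the 6 members with 3 units, 5 had a positive log2 fold change between the pressures, and the 1 negative member was Hspa8, whose value depends on how reads are divided among its copies. Of 22 tested members whose promoter held no such match, 14 were positive, with a median of 0.39. The median was 0.70 for the 6 members with 3 units and 0.76 for the 5 other than Hspa8. This difference was not tested. The pair of Hspa1a and Hspa1b stands outside these counts because the promoter of only 1 of the 2 was matched. Promoters were not matched for Hspa1b, Hsp90aa1, Cryab, Dnaja2, Dnajb4 and Hsf1. A match is a description of letters and not evidence of binding.

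No member passed the threshold between the pressures, and most had their highest level in 1 library, pathological replicate 2. With edgeR's quasi-likelihood test, 0 of 33 tested members had a Benjamini-Hochberg adjusted p under 0.05, beside 0% of all 12740 genes tested. At an unadjusted p under 0.05 there were also 0 members, beside 0.259% of all genes (0.0549% higher and 0.204% lower), and DESeq2, which called 1 gene, and limma-voom called 0 members as well. Hsp90aa1 was the member left out by the filter on low counts. Fold changes were positive for 22 of the 33 members, beside 52.5% of all genes, with a median of 0.64 on the log2 scale against 0.05 over all genes. Of the 33, 20 were highest in pathological replicate 2, beside 21% of all genes, and 0 were highest in physiological replicate 1, beside 18.2%. Without pathological replicate 2, 16 of 34 tested members were positive and their median was -0.02. The members took 2.41%, 3.41% and 0.706% of the plain library total, without TMM correction, in pathological replicates 1, 2 and 3. In physiological replicates 1, 2 and 3 they took 1.56%, 1.33% and 1.13%. The share was thus highest and lowest within the pathological group, and the groups overlapped. Whether the 3 libraries of a group stem from different rats or different devices is not stated, so the p-values reflect variation among these 6 libraries alone, part of which may be technical.

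**Figure D1:**
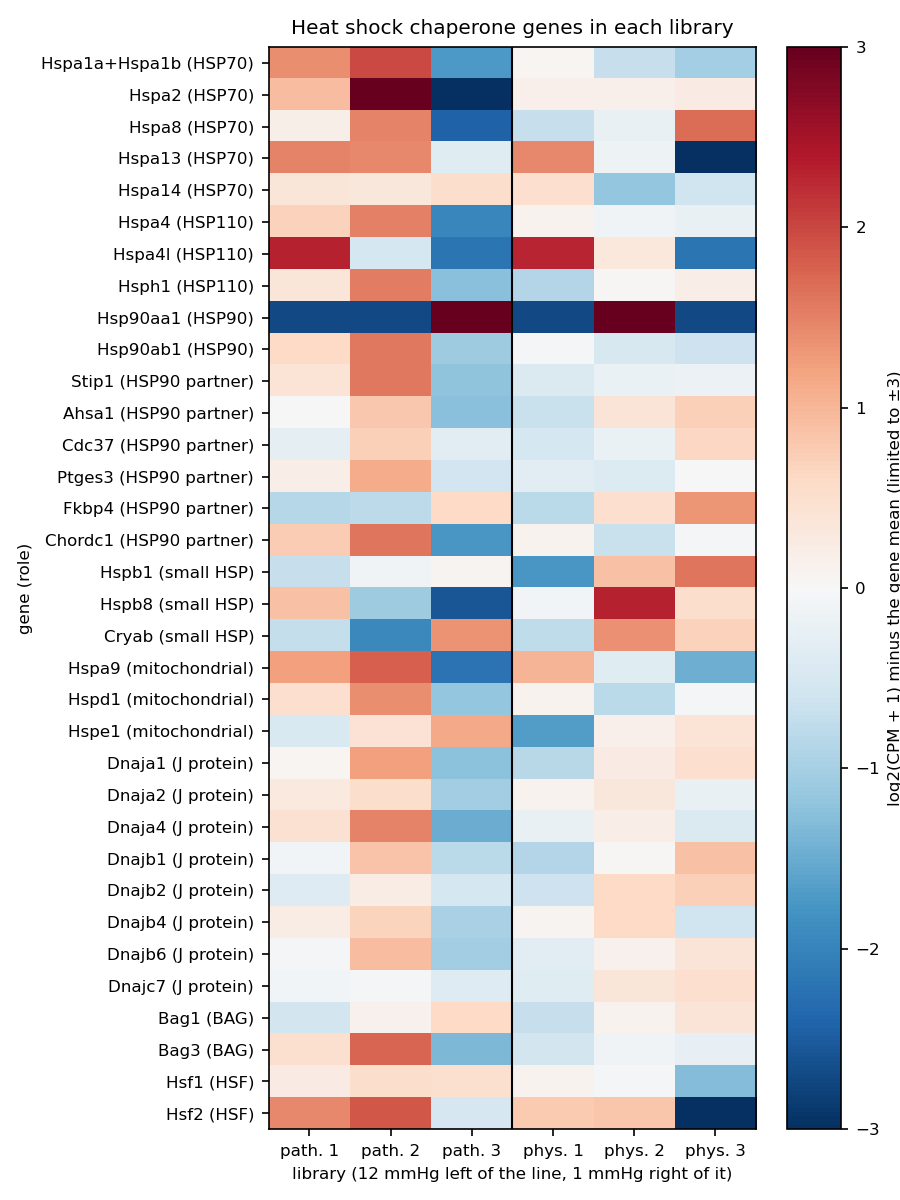
Level of the 34 members in the 6 libraries, as log2(CPM + 1) minus the gene's mean over the libraries, with colours limited to ±3. Rows are grouped by role and columns are libraries. Pathological replicate 2 holds the darkest red of most rows, and pathological replicate 3 is blue in many of the same rows.

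The stress-inducible HSP70 genes Hspa1a and Hspa1b had the smallest unadjusted p of the members. Their summed level was 3452, 5226 and 399 CPM in pathological replicates 1, 2 and 3, against 1366, 821 and 644 CPM in the physiological libraries. Pathological replicates 1 and 2 thus stood above every physiological library and pathological replicate 3 below every one. The mean was 3026 ± 2442 CPM at pathological and 944 ± 376 CPM at physiological pressure (SD, n = 3 each, here and below), which gave 1.68 as the log2 fold change (95% confidence interval -0.50 to 3.86, edgeR unadjusted p = 0.113, adjusted p = 1). Without pathological replicate 2 the log2 fold change was 1.04. The division of reads between the copies differed by library. The Hspa1a row took 0.00246%, 0.00214% and 25.9% of the summed counts in the pathological libraries, against 0%, 14.4% and 22.3% in the physiological libraries. The larger shares were in the 3 hepatocyte-rich libraries, and the sum does not depend on them. With the related gene Hspa1l added, the counts of the 3 genes came to whole numbers within 0.03 in 5 of 6 libraries.

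Hspa8, the constitutive HSP70 of the cytosol, could not be read from its own rows. The symbol stands on 2 rows, whose sum was 138, 347 and 22.1 CPM in the pathological and 76.4, 105 and 395 CPM in the physiological libraries. The log2 fold change was -0.18 (95% interval -2.58 to 2.21). A set of 4 rows that RefSeq lists as Hspa8 or Hsc70 pseudogenes held 91%, 91.4% and 96.1% of the family's counts in the pathological libraries, against 90.9%, 90.9% and 66.1% in the physiological libraries. The row of Hsc70-ps1 alone stood at 1116, 3208 and 479 CPM in the pathological and at 641, 844 and 538 CPM in the physiological libraries. With named and pseudogene rows added, the family measured 1542, 4053 and 559 CPM at pathological against 838, 1151 and 1167 CPM at physiological pressure. Added in this way, which was chosen after seeing the data, pathological replicate 2 became the highest library in place of physiological replicate 3, and the log2 fold change was 0.96 (edgeR unadjusted p = 0.265, adjusted p = 1). Rows with no gene name in the files or in RefSeq were not added, so these sums and shares cover the rows named here and may miss reads of the family. Counts on pseudogene rows may be reads of the gene itself or of the pseudogene, and the deposited values do not separate them.

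**Figure D2:**
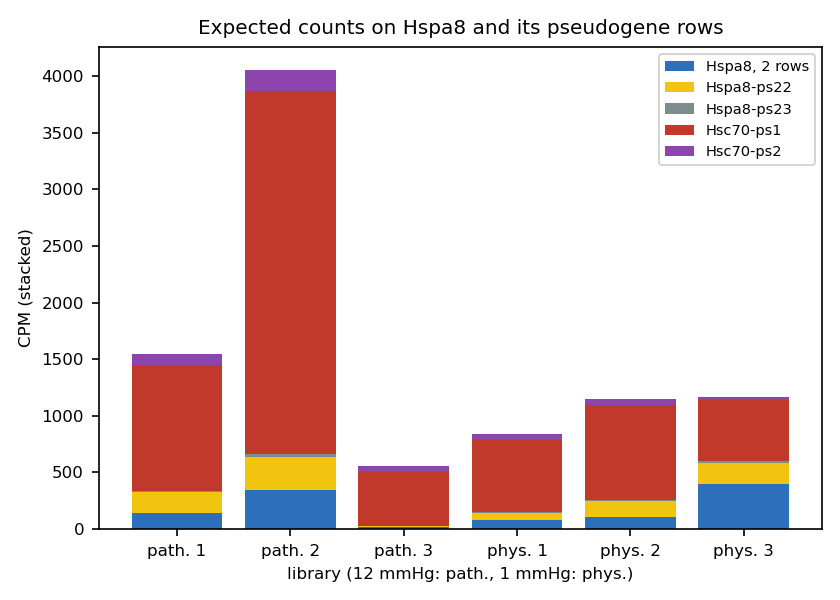
Stacked CPM of the 2 Hspa8 rows and the 4 pseudogene rows in each library. The Hsc70-ps1 row is the tallest part of every bar, and the Hspa8 rows are tallest in physiological replicate 3, at 395 CPM.

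The other HSP70 genes were low and scattered. Hspa2, best known from the testis, ranged from 0.284 to 304 CPM in the pathological libraries and from 35.4 to 37.8 CPM in the physiological libraries, so that a single group held both extremes. Its means were 122 ± 161 CPM at pathological and 36.3 ± 1.29 CPM at physiological pressure, with a log2 fold change of 1.75 (95% interval -1.87 to 5.37). Hspa13, an HSP70 of microsomes, ranged from 13.7 to 52.5 CPM at pathological and from 0.285 to 50 CPM at physiological pressure, with means of 39 ± 21.9 CPM at pathological and 22.2 ± 25.4 CPM at physiological pressure and a log2 fold change of 0.81. Hspa14, which works at the ribosome, ranged from 21 to 24.1 CPM at pathological and from 6.77 to 23.7 CPM at physiological pressure, with means of 22.1 ± 1.68 CPM at pathological and 13.7 ± 8.86 CPM at physiological pressure and a log2 fold change of 0.70. None of these genes separated the pressures.

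The HSP110 genes encode exchange factors that release clients from HSP70. Hsph1 measured 1188, 2687 and 390 CPM at pathological against 502, 941 and 1055 CPM at physiological pressure, with a log2 fold change of 0.77 (95% interval -1.07 to 2.62). Its 2 highest libraries were pathological replicate 2 and pathological replicate 1, and its lowest was pathological replicate 3. Hspa4 showed the same order of the pathological libraries, from 183 to 2024 CPM, with 612 to 767 CPM at physiological pressure. Its means were 1121 ± 921 CPM at pathological and 680 ± 79.5 CPM at physiological pressure, and the log2 fold change was 0.72. Hspa4l measured 21.8, 2.18 and 0 CPM at pathological and 21.2, 4.74 and 0 CPM at physiological pressure, which gave -0.12 as the log2 fold change (95% interval -6.07 to 5.83). Its means were 7.99 CPM at pathological and 8.66 CPM at physiological pressure, so the spread lay within the groups. The labels state no pairing of replicate numbers across the groups.

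Among the HSP90 genes and their partners, Hsp90ab1, Stip1, Chordc1 and Ptges3 shared one order of libraries, with pathological replicates 1 and 2 highest and pathological replicate 3 lowest. Hsp90ab1, the constitutive HSP90 of the cytosol, measured 6748, 13227 and 2114 CPM at pathological against 4329, 3173 and 2896 CPM at physiological pressure. Its means were 7363 ± 5582 CPM at pathological and 3466 ± 760 CPM at physiological pressure, with a log2 fold change of 1.09 (95% interval -0.88 to 3.05, edgeR unadjusted p = 0.237, adjusted p = 1). Stip1, which hands clients from HSP70 to HSP90, measured 771, 1744 and 251 CPM at pathological against 431, 504 and 513 CPM at physiological pressure. The physiological libraries lay close together, at 483 ± 44.9 CPM, while the pathological libraries, at 922 ± 758 CPM, lay on both sides of them. The log2 fold change of Stip1 was 0.93 (95% interval -0.82 to 2.69). Chordc1, a zinc-binding partner of HSP90, had the same form, with 171, 306 and 29.4 CPM at pathological against 108, 62.8 and 96.7 CPM at physiological pressure, and a log2 fold change of 0.92 (95% interval -1.05 to 2.89).

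Without pathological replicate 2, the log2 fold changes were 0.36 for Hsp90ab1, 0.0923 for Stip1, 0.18 for Chordc1 and 0.11 for Ptges3.

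Ahsa1, Fkbp4 and Cdc37 had fold changes near 0 or below it. Ahsa1, which stimulates the ATPase of HSP90, measured 295, 511 and 122 CPM at pathological against 185, 382 and 483 CPM at physiological pressure, with a log2 fold change of -0.18 (95% interval -1.81 to 1.46). Fkbp4, a partner in steroid receptor complexes, measured 84.8, 88.4 and 234 CPM at pathological against 88.2, 221 and 391 CPM at physiological pressure. Fkbp4 was thus low in the 3 hepatocyte-poor libraries of either pressure and higher in the 3 hepatocyte-rich ones, and its log2 fold change was -0.78 (95% interval -2.54 to 0.97). The kinase-loading partner Cdc37 ranged from 295 to 603 CPM at pathological and from 253 to 569 CPM at physiological pressure, with means of 400 ± 176 CPM at pathological and 380 ± 167 CPM at physiological pressure. Ptges3, the p23 partner of HSP90, ranged from 261 to 843 CPM at pathological and from 295 to 385 CPM at physiological pressure, with means of 518 ± 297 CPM at pathological and 331 ± 47.6 CPM at physiological pressure and a log2 fold change of 0.64. Counts of Ptges3 and of the row Ptges3l1 summed to whole numbers within 0.03 in all 6 libraries, so reads were divided between these rows, with 0% to 8.28% on Ptges3l1 in the pathological and 0.155% to 11.7% in the physiological libraries.

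Hsp90aa1, the stress-inducible HSP90, is listed at 0, 0 and 287 CPM in the pathological and at 0, 263 and 0 CPM in the physiological libraries. Genes that cells of every kind use can be listed at 0 when reads are divided among copies, and a row that RefSeq lists as the transcribed pseudogene Hsp90aa1-ps16 held 42.5, 85.4 and 16.1 CPM at pathological and 27.2, 20.6 and 16.8 CPM at physiological pressure. Other rows that carry no gene name were not searched for its reads, and no fold change is given for Hsp90aa1.

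The small heat shock proteins were the only role with a negative log2 fold change in all 3 of its members, although none passed the threshold. Hspb1 (HSP27), which also binds actin filaments, measured 358, 542 and 612 CPM at pathological against 172, 1062 and 1770 CPM at physiological pressure. The means were 504 ± 131 CPM at pathological and 1002 ± 801 CPM at physiological pressure, with a log2 fold change of -0.99 (95% interval -2.93 to 0.95, edgeR unadjusted p = 0.273, adjusted p = 1). Its lowest library was physiological replicate 1, and its 3 highest were the hepatocyte-rich libraries, so the groups overlapped. Cryab, the alpha-B crystallin, measured 21.4, 8.62 and 92.1 CPM at pathological against 20.8, 93.3 and 57.9 CPM at physiological pressure, again highest in the hepatocyte-rich libraries. Its log2 fold change was -0.49 (95% interval -2.97 to 1.98). Hspb8, which works with Bag3 in selective autophagy, was low, with 9.91, 1.8 and 0 CPM at pathological against 4.54, 28.5 and 7.56 CPM at physiological pressure and a log2 fold change of -1.79 (95% interval -6.81 to 3.23).

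In the mitochondrial group all 3 fold changes were positive, without passing the threshold. Hspd1 (HSP60) measured 695, 1289 and 221 CPM at pathological against 531, 281 and 485 CPM at physiological pressure, with a log2 fold change of 0.76 (95% interval -0.95 to 2.48). Hspe1 (HSP10), the lid of the HSP60 chamber, measured 128, 237 and 386 CPM at pathological against 54, 196 and 232 CPM at physiological pressure, with a log2 fold change of 0.64 (95% interval -1.08 to 2.36). Without pathological replicate 2, Hspd1 was at 0.0903 and Hspe1 at 0.68. These partners share a promoter region but ordered the libraries differently, since Hspd1 was lowest and Hspe1 highest in pathological replicate 3. Hspa9 (mortalin), the HSP70 of the matrix, ranged from 106 to 1697 CPM at pathological and from 178 to 997 CPM at physiological pressure. Its means were 985 ± 809 CPM at pathological and 520 ± 426 CPM at physiological pressure, with a log2 fold change of 0.92, or 0.28 without pathological replicate 2, and all 3 hepatocyte-poor libraries lay above the hepatocyte-rich ones.

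The J proteins, which bring clients to HSP70 and start its ATPase, were divided evenly, with 4 positive and 4 negative fold changes among 8 members. Dnajb1 (HSP40), the inducible partner of HSP70, measured 313, 595 and 188 CPM at pathological against 179, 337 and 609 CPM at physiological pressure. Its group means were nearly equal, at 365 ± 209 CPM at pathological and 375 ± 218 CPM at physiological pressure, and the log2 fold change was -0.04 (95% interval -1.67 to 1.59). Dnaja1 measured 891, 2013 and 360 CPM at pathological against 481, 1017 and 1198 CPM at physiological pressure, with a log2 fold change of 0.28 (95% interval -1.51 to 2.06). Dnaja4 measured 87.5, 179 and 21.9 CPM at pathological against 54, 72.7 and 46.8 CPM at physiological pressure, with a log2 fold change of 0.73 (95% interval -1.21 to 2.68). For both, pathological replicate 2 was the highest and pathological replicate 3 the lowest library. Dnajb4 measured 37.9, 52.5 and 16.1 CPM at pathological against 34.6, 49.7 and 21.2 CPM at physiological pressure, which gave 0.01 as the log2 fold change (95% interval -2.08 to 2.11). The remaining J proteins Dnaja2, Dnajb2, Dnajb6 and Dnajc7 lay between 74 and 293 CPM in the pathological and between 84.3 and 384 CPM in the physiological libraries, with log2 fold changes of -0.01, -0.53, 0.08 and -0.39. Dnajc7 varied least of all tested members between libraries, from 83.3 to 105 CPM at pathological and from 84.3 to 156 CPM at physiological pressure.

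Bag3, a stress-induced HSP70 partner that routes damaged proteins to autophagy and responds to tension in muscle cells, measured 963, 2339 and 273 CPM at pathological against 470, 646 and 583 CPM at physiological pressure. Its means were 1192 ± 1052 CPM at pathological and 566 ± 89.4 CPM at physiological pressure, with a log2 fold change of 1.07 (95% interval -0.79 to 2.94, edgeR unadjusted p = 0.222, adjusted p = 1). Without pathological replicate 2 it was 0.14. As for Stip1 and Hsph1, the pathological libraries lay on both sides of the physiological ones. Bag1, its constitutive relative, ranged from 103 to 227 CPM at pathological and from 93.5 to 198 CPM at physiological pressure, with means of 166 ± 62.2 CPM at pathological and 152 ± 53.4 CPM at physiological pressure and a log2 fold change of 0.13.

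The heat shock factor gene Hsf1 was the only member whose groups did not overlap. It measured 78, 95.3 and 93.1 CPM at pathological against 71, 63.1 and 26.2 CPM at physiological pressure. The means were 88.8 ± 9.44 CPM at pathological and 53.4 ± 23.9 CPM at physiological pressure, with a log2 fold change of 0.73 (95% interval -0.85 to 2.32, edgeR unadjusted p = 0.318, adjusted p = 1). Groups that did not overlap with pathological libraries higher made up 1 of 34 members, beside 1.56% of all genes, and 0 members were on the lower side, beside 3.05% (4.62% on either side). With plain library totals in place of scaled ones, the values of Hsf1 overlapped and the count was 0. Its relative Hsf2 measured 80.3, 108 and 20.3 CPM at pathological against 50.7, 52.7 and 0.428 CPM at physiological pressure, with a log2 fold change of 1.01 (95% interval -2.20 to 4.21). The level of a factor's transcript does not show its activity, which is known to depend on release of the protein from chaperones.

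**Figure D3:**
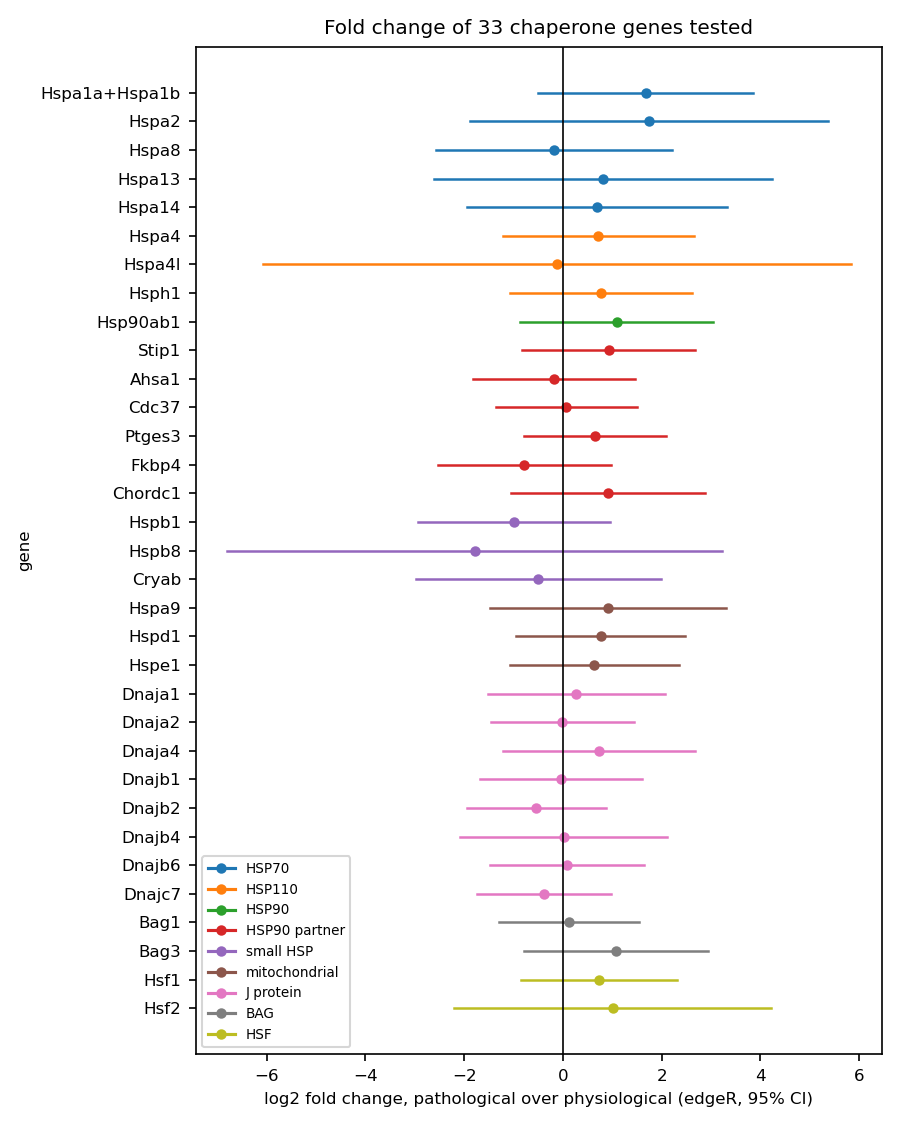
Log2 fold change of the 33 tested members, pathological over physiological, with 95% confidence intervals from the edgeR fit, coloured by role. Every interval includes 0, and the small heat shock proteins all lie left of it.

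**Figure D4:**
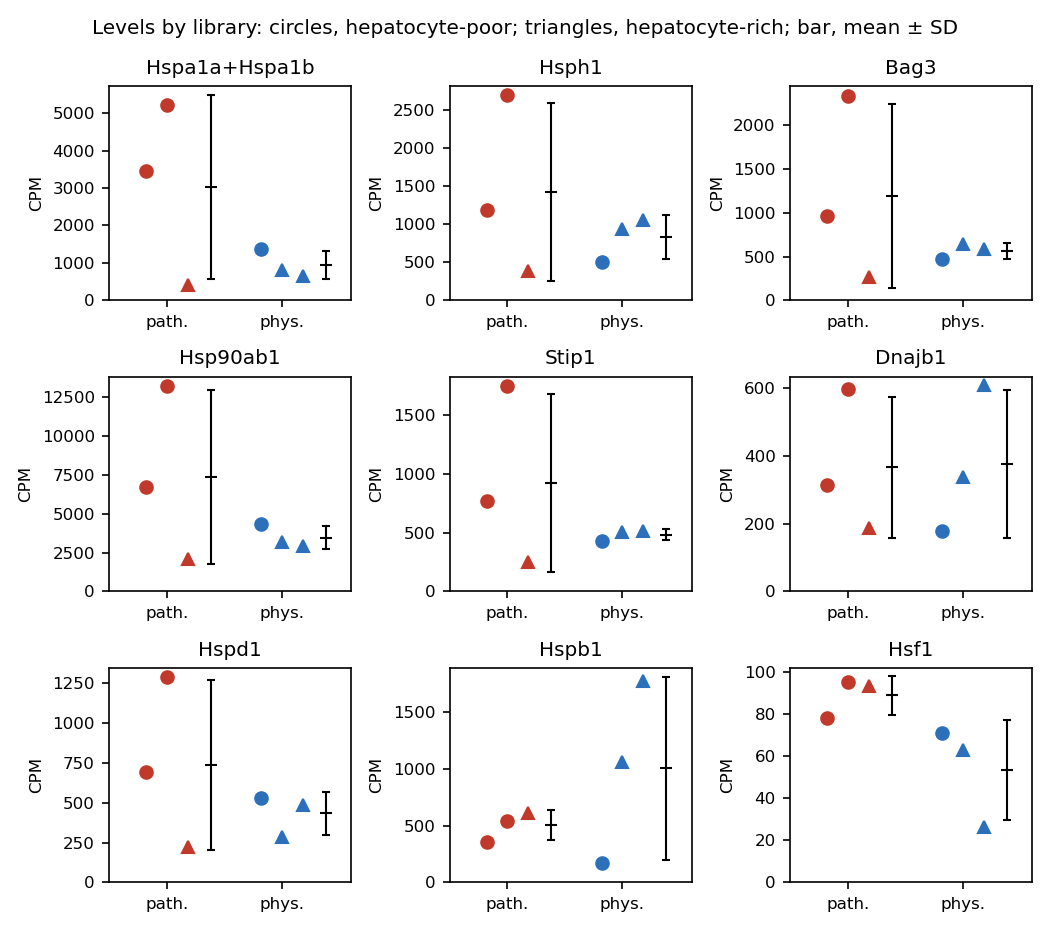
CPM of 9 members in each library, pathological (red) left of physiological (blue). Circles are hepatocyte-poor and triangles hepatocyte-rich libraries, and bars are the mean ± SD of 3 libraries. In the panels of Hspa1a and Hspa1b, Hsph1, Bag3, Hsp90ab1, Stip1 and Hspd1, the red circles are above and the red triangle below every blue point.

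Most members differed between the pressure groups in opposite directions in libraries poor and rich in hepatocyte transcripts. This division was known from earlier results of these data, and it follows a measured content and not the pressure label. In the labels, the hepatocyte-poor libraries carry the sample numbers 2, 3 and 9 and the hepatocyte-rich ones 11, 22 and 23. Hepatocyte content thus cannot be told apart from the order of sample numbers, nor from other features that divide the libraries the same way. Totals were 23649036 to 24025406 counts in the hepatocyte-poor and 8925149 to 17117840 counts in the hepatocyte-rich libraries. Endothelial markers summed to 1205 to 3662 CPM in the poor and 4108 to 6412 CPM in the rich libraries (plain library total). Stellate markers summed to 487 to 741 CPM in the poor and 1781 to 2559 CPM in the rich libraries. Each kind of library holds only 1 library of 1 of the pressures. A difference between pressures there cannot be told apart from a difference between single libraries, so the differences are given as values. Members measured in the same libraries are not replicates of such a difference. In the hepatocyte-poor libraries, pathological replicates 1 and 2 were both above physiological replicate 1 for 28 of 34 members, beside 30.6% of all genes. The exceptions were Hspa4l, Hspa14, Hsp90aa1, Hspb8, Cryab and Fkbp4. The difference, as log2(CPM + 1), was positive for 28 of the 33 tested members, beside 42.8% of all genes, and had a median of 0.87 over the 33 tested members and of -0.12 over all genes. It was 1.83 for Hsph1, 1.67 for Bag3, 1.67 for Hspe1, 1.64 for Hspa1a and Hspa1b, and 1.26 for Dnajb1. In the hepatocyte-rich libraries, pathological replicate 3 was below both physiological replicates 2 and 3 for 24 of 34 members, beside 33.8% of all genes. There the difference was negative for 26 of the 33, beside 54.4% of all genes, and its median was -1.10 over the 33 tested members and -0.14 over all genes, with -1.35 for Hsph1, -1.17 for Bag3, -0.87 for Hspa1a and Hspa1b, and -1.27 for Dnajb1. Of the 33, 23 were positive in the hepatocyte-poor and negative in the hepatocyte-rich libraries, beside 24.4% of all genes. The members that were positive in both were Hspa13, Hspe1, Bag1, Hsf1 and Hsf2. All 3 hepatocyte-poor libraries lay above all 3 hepatocyte-rich ones for 7 of 34 members, beside 30.2% of all genes, among them Hspa1a and Hspa1b, Hsp90ab1 and Hspd1. Hspb1, although negative over all libraries, was at 1.35 in the hepatocyte-poor and at -1.16 in the hepatocyte-rich libraries.

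**Figure D5:**
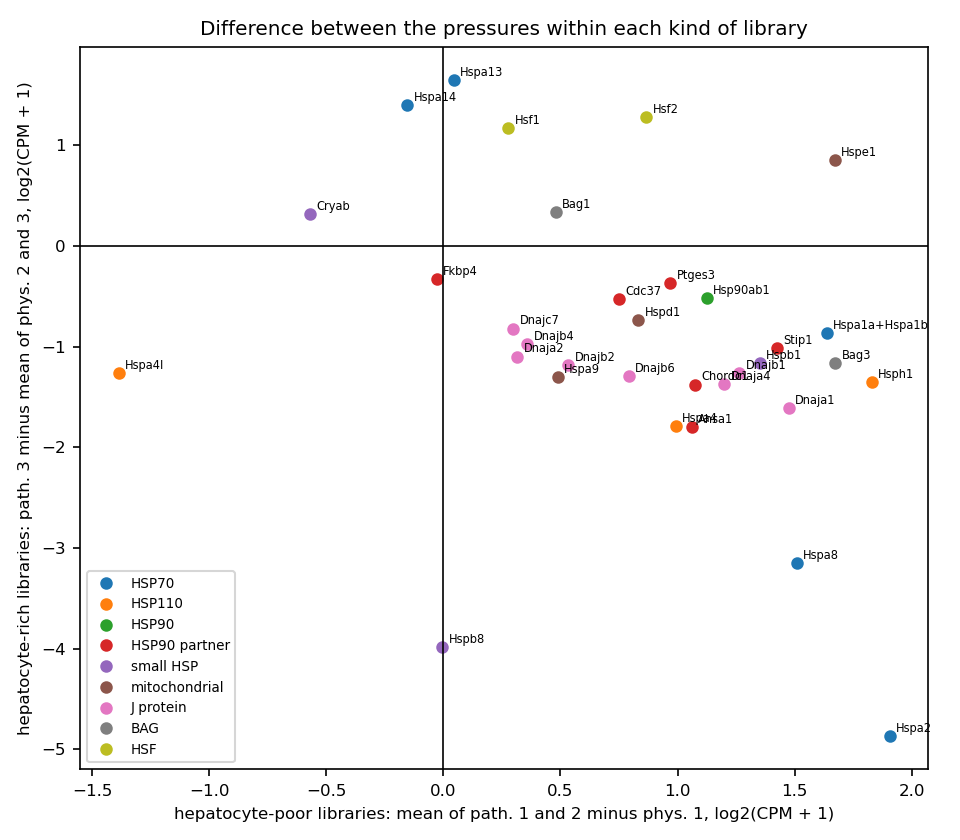
Difference between the pressures for the 33 tested members, pathological minus physiological in log2(CPM + 1), within the hepatocyte-poor libraries (horizontal) and the hepatocyte-rich libraries (vertical). Most points, 23 of 33, lie at the lower right, and the points are coloured by role.

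Without pathological replicate 3, the library richest in hepatocyte markers, more members had groups that did not overlap. The median log2 fold change of the members stayed at 0.64, although single members moved. Values rose for all tested members but Hspa14, Hspb1, Cryab, Hspe1, Bag1, Fkbp4 and Hsf1, which fell. For Hspa1a and Hspa1b the change was from 1.68 to 2.21, and for Hspe1 from 0.64 to 0.20. With 1 library fewer to separate, the pathological libraries lay above every physiological library for 15 of 34 members, beside 13.7% of all genes. These were Hspa1a and Hspa1b, Hspa2, Hspa4, Hspa9, Hspa13, Hsp90ab1, Hspd1, Hsph1, Dnaja4, Bag3, Stip1, Ptges3, Chordc1, Hsf1 and Hsf2. In the edgeR fit without that library, 26 of 33 members were positive, 5 had an unadjusted p under 0.05, beside 827 of 14230 genes, and 0 passed the adjusted threshold.

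A wider list held 68 other chaperone genes, among them the chaperonin CCT, prefoldin, further J and BAG proteins and mitochondrial proteases. Taken as a whole, this list showed less of this pattern, a difference that was not tested. Of its 61 tested genes 39 were positive and 0 passed the threshold, with a median log2 fold change of 0.24. Its highest library was pathological replicate 2 for 19 of 61 genes and pathological replicate 3 for 20 of 61. In the hepatocyte-poor libraries its median difference was 0.09, and in the hepatocyte-rich libraries 0.04. Among its positive genes, Ttc4 and the CCT subunit Cct7 had the smallest unadjusted p. Ttc4, an HSP90 partner, measured 34.8, 42.5 and 130 CPM at pathological against 43.1, 17 and 12 CPM at physiological pressure, with a log2 fold change of 1.52 (95% interval -0.66 to 3.71). Cct7 measured 828, 1423 and 524 CPM at pathological against 662, 454 and 555 CPM at physiological pressure, with a log2 fold change of 0.73. On the lower side were Hspa12b, an HSP70 relative of endothelium, and Dnajc19 of the mitochondrial import motor, with log2 fold changes of -4.65 (95% interval -11.52 to 2.23) and -1.56 (95% interval -4.49 to 1.37). Hspa12b had 0.858, 0 and 0 CPM at pathological against 3.19, 19 and 0.143 CPM at physiological pressure. Most of its signal thus lay in physiological replicate 2. Parts of the list did follow the members. The CCT genes Tcp1, Cct2, Cct3, Cct4, Cct5, Cct6a, Cct7 and Cct8 and the gene St13 were highest in pathological replicate 2, then pathological replicate 1. All of these but Cct7 were lowest in pathological replicate 3. Tcp1 measured 632, 1206 and 177 CPM at pathological against 423, 335 and 372 CPM at physiological pressure.

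Chaperones of the endoplasmic reticulum, the most similar group outside the cytosol and mitochondria, were also highest in pathological replicate 2, for 10 of 16 genes, and 15 of 16 were positive with a median of 0.62. None passed the threshold. Hspa5 (BiP), the HSP70 of that compartment, measured 3720, 10382 and 397 CPM at pathological against 2591, 1058 and 740 CPM at physiological pressure, with the same library highest and the same lowest as for Hspa1a and Hspa1b. Calr, the lectin chaperone calreticulin, measured 1118, 2656 and 1407 CPM at pathological against 986, 1006 and 913 CPM at physiological pressure, and its groups did not overlap. The same held for Dnajb11, a J protein named for this reason after its values were seen, at 107, 128 and 174 CPM at pathological against 103, 71.7 and 72.6 CPM at physiological pressure. These were 2 of 16 genes, beside 1.56% of all genes. The 1 negative gene was Serpinh1 (HSP47), the collagen chaperone, at 34.1, 21.3 and 195 CPM at pathological against 58.6, 252 and 177 CPM at physiological pressure, low in the hepatocyte-poor libraries. In the hepatocyte-rich libraries the median difference of this group was 0.02, against -1.10 for the cytosolic and mitochondrial members, and whether the groups of genes differ was not tested.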

How the data were processed

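Poly(A) RNA of 6 libraries was read single-end. Per the file headers, the authors deposited RSEM expected counts per gene. The submitters' processing notes list STAR, RSEM and limma. Tool versions, genome build, annotation and strand setting were not given in the sources used here. Between 4.33% and 10.4% of all values per library were not whole, since RSEM divides reads among similar genes, and reads of overlapping or antisense genes cannot be told apart without strand. Expected counts were rounded to whole numbers, Hspa1a was added to Hspa1b and the 2 Hspa8 rows were added together. Genes passed filterByExpr with a minimum count of 10, were scaled by TMM and were tested with edgeR 4.0.16 (quasi-likelihood) in R 4.3.3, with Benjamini-Hochberg adjustment over 12740 genes. DESeq2 1.42.0 and limma 3.58.1 (voom) were alternatives, beside other scalings, filters, left-out libraries, a hepatocyte term and addition of copy rows, the last chosen after seeing the data. Libraries were called rich in hepatocyte transcripts above a marker sum of 10000 CPM of the plain library total. Library totals from 8925149 to 24025406 limit precision for low genes. Pairs of libraries of 1 group differed beyond sampling noise (chi-square per degree of freedom 198 to 1100), so none was counted as a duplicate. The edgeR step was run on simulated data as a check of the code. Its pass condition used far less variation than these libraries have (biological coefficient of variation 1.39), so it does not show what they could detect. Members and lists were chosen with earlier results of these data known. Values in every library are given for members that do not overlap between groups, for the 5 with the smallest unadjusted p and for a set list of members; of other lists, the 2 genes with the smallest p in each direction are named. Promoter sequences came from RefSeq (GRCr8), and gene coordinates of the files' own build were not used.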

Additional observations from a re-analysis of the deposited data

How the results depend on the processing

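No paired analysis was run because the labels state no pairing across the groups, which share no sample numbers. Whether libraries of the 2 groups were paired or shared a batch is not stated. With all 6 libraries, 0 members passed the threshold under every scaling, filter and tool run. Signs turned for genes near 0: with RLE factors Dnaja2 was 0.0889 and Dnajb1 0.0805, and with DESeq2 Dnaja2 was 0.089 and Dnajb1 0.0806. With plain totals Dnajb1 was 0.0354, Dnajb4 -0.0587 and the count of members not overlapping on the higher side 0. With limma-voom Dnajb1 was 0.13 and Dnajb4 -6e-04. RLE factors moved the median of all genes to 0.15, and that of the members to 0.75, while limma-voom gave the members 0.25 against -0.07 over all genes and no filter on low counts gave them 0.48. With a hepatocyte marker term Hspa2 was -0.15, Hspa4 -0.0738, Hspa9 -0.0421, Dnajb1 0.0278, Dnajb4 -0.25 and Dnajb6 -0.11, and the members' median was 0.13 against -0.24 over all genes. With copy rows added, Hspa8 was 0.96. In hepatocyte-poor libraries alone, 28 members did not overlap on the higher and 2 on the lower side. With 1 library against 2, groups separate easily. On the scaling of all 6 libraries, 30.6% of all genes lay on that higher side, and the share on the lower side was not computed. In these libraries Hspa8 was 1.67, Hspa14 -0.15, Hspb1 1.39, Hspb8 0.39, Dnaja2 0.33, Dnajb1 1.35, Dnajb2 0.58, Dnajc7 0.31 and Ahsa1 1.12. In hepatocyte-rich libraries alone, where 1 pathological library is assumed to vary like the others and its own spread is not measured, 3 members passed the edgeR threshold with Benjamini-Hochberg adjustment, beside 245 of 12650 genes: Hspa8 at -3.48 (adjusted p = 0.000103), Hspa4 at -1.78 (adjusted p = 0.0411) and Ahsa1 at -1.80 (adjusted p = 0.0485). The Hspa8 call rests on its named rows: with the 4 pseudogene rows added, an alternative chosen after seeing the data, it was -1.04 and did not pass (edgeR adjusted p = 0.452). In the hepatocyte-rich libraries 7 members were positive, and the median was -1.13 against -0.59 over all genes. There 5 members did not overlap on the higher and 24 on the lower side, again with 1 library against 2. On the scaling of all 6 libraries, 33.8% of all genes lay on that lower side, and the share on the higher side was not computed. Values were -0.86 for Hspa1a and Hspa1b, -6.94 for Hspa2, -1.40 for Hspa9, -0.51 for Hsp90ab1, 0.29 for Cryab, -0.77 for Hspd1, -1.34 for Hsph1, -1.60 for Dnaja1, -1.44 for Dnaja4, -1.13 for Dnajb4, -1.30 for Dnajb6, -1.16 for Bag3, -1.001 for Stip1, -0.57 for Cdc37, -0.36 for Ptges3, -1.42 for Chordc1 and -0.39 for Hsf2. Over the alternatives that leave out 1 library, there were 0 calls, 16 to 26 positive members, a median of -0.02 (without pathological replicate 2) to 0.64, 1 to 15 members not overlapping on the higher and 0 to 3 on the lower side. The count of 15 came without pathological replicate 3, beside 13.7% of all genes. Such shares were not computed for the other left-out libraries. Ranges that crossed 0 were Hspa2 -0.23 to 2.34, Hspa4 -0.0134 to 1.23, Hspa4l -2.99 to 1.86, Hspa8 -1.24 to 0.90, Cryab -1.91 to 0.0694, Hsph1 -0.0664 to 1.23, Dnaja1 -0.51 to 0.71, Dnaja2 -0.30 to 0.34, Dnaja4 -0.0712 to 1.21, Dnajb1 -0.57 to 0.50, Dnajb4 -0.38 to 0.37, Dnajb6 -0.54 to 0.46, Bag1 -0.16 to 0.37, Ahsa1 -0.73 to 0.22 and Cdc37 -0.34 to 0.48. The cause of these changes was not tested. All values but counts are log2 fold changes, and their median standard error of 1.72 over all tested genes limits what 3 libraries a group can show.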
